A study of Mus musculus with 16 samples.

Results

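The genes described here are the zinc finger genes that mouse nomenclature names Zfp plus a number and that were detected in pools of mouse 8-cell embryos. Of the 43437 genes in the deposited table, 338 carry such a name. Members were chosen by their level: they had to reach 2 FPKM (fragments of a transcript, scaled for its length and for all mapped fragments) in at least 4 of the 16 libraries, and Zfp42, Zfp57 and Zfp352 were left out by name. This left 138 members, while 197 genes did not reach the level. The levels below are a description without a test. The differences between groups were not used in the choice, but a member that is high in some groups passes the level more readily.

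Most Zfp genes encode C2H2 proteins, in which pairs of cysteines and histidines hold a zinc ion and each finger can contact a few bases of DNA. The largest family among them carries a KRAB domain at the N-terminus, which binds the corepressor Trim28. Trim28 in turn brings in histone methyltransferases, heterochromatin proteins and deacetylases, and many of these proteins silence retrotransposons or guard imprinted regions in early embryos. KRAB genes lie in tandem arrays of similar copies, whereas other Zfp genes are conserved single-copy regulators of transcription, RNA decay or translation.

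The series asked what 2 transcription factors, Tfap2c (of the AP-2 family) and Tead4 (a TEAD factor, the DNA-binding partner of Yap), do before the first lineages separate. Zygotes were injected with double-stranded RNA (dsRNA), which destroys matching transcripts, and polyadenylated RNA was amplified by Smart-seq2 from lysates of 10 pooled 8-cell embryos, about 80 cells. Of 4 groups with 4 libraries each, the control received dsRNA against GFP, a jellyfish gene that mice lack, and the others received dsRNA against Tfap2c, Tead4 or both. Every group held libraries A1 and A2 from cross A, with C57BL/6J×CBA/J mothers, and B1 and B2 from cross B, with C57BL/6J×DBA/2J mothers.
The labels name the fathers as C57BL/6J×DBA/2J in 1 library of each cross and give another DBA substrain number in each of the others, so whether all fathers were alike is not known. Embryos were cultured in KSOM medium, and all groups were injected. The labels do not say whether libraries of a group came from separate matings or injection sessions, so p-values measure only the spread between these pools. No batch or date is given, and cross and any batch that went with it cannot be told apart. In such bulk pools, fewer cells with a transcript and less of it per cell cannot be told apart.

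The libraries had 10049 to 10504 genes at 1 FPKM or more, and their relative depths, read from the steps between low values, lay between 0.876 and 1.12. Tfap2c averaged 35.7 ± 6.60 FPKM (SD, n = 4, as for all means below) in the control, 15.8 ± 1.65 after Tfap2c dsRNA and 16.2 ± 0.342 after both. Tead4 averaged 48.6 ± 7.00 in the control, 7.66 ± 2.49 after Tead4 dsRNA and 9.49 ± 3.94 after both. It also fell to 28.3 ± 7.77 after Tfap2c dsRNA alone (adjusted p = 0.0192, limma), so that group was lower in both factors. The 9 genes listed as markers of the 8-cell embryo include both targets and the oocyte transcripts Zp3, Gdf9, Ooep and Nlrp5. All 9 were above 0 in every library, with lowest values of 0.174 FPKM for Ooep and 0.697 for Gdf9. Of the 9, 5 fell after Tfap2c dsRNA (Pou5f1, Nanog, Tdgf1, Tfap2c and Tead4), 1 after Tead4 dsRNA (Tead4) and 4 after both, where Zp3 rose. They summed to 220 to 269 FPKM in the control, 84.8 to 109 after Tfap2c dsRNA, 191 to 274 after Tead4 dsRNA and 81.8 to 128 after both, and the part of this difference in the results was not tested. Summed markers of fibroblasts, sperm and cumulus cells did not pass 3.51 FPKM in any library. Among 7 blood markers, 3 were at 0 in every library and the list summed to 9.86 to 26.8 FPKM in the control, 29.3 to 63.0 after Tfap2c dsRNA, 20.3 to 50.9 after Tead4 dsRNA and 40.7 to 77.7 after both. The sums after Tead4 dsRNA overlapped those of the control and the sums of the other two dsRNA groups lay above them, and their part in the results was not tested.

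As a group the members were low to moderate in level. Their mean over the 16 libraries had a median of 6.70 FPKM, with quartiles at 3.23 and 15.8, and ranged from 1.57 to 197. The level was at or above 2 FPKM in all 16 libraries for 92 members, in 12 to 15 libraries for 24 and in 4 to 11 for 22. No member met the rule through a single group, but 11 had at least 1 group without a library at 2 FPKM. Zfp326 reached it in 0 GFP, 3 Tfap2c-depleted, 1 Tead4-depleted and 1 doubly depleted libraries. Its rise after Tfap2c dsRNA is therefore not separate from its choice. Just inside the threshold were Zfp846, Zfp654 and Zfp653, with fourth-highest values of 2.04, 2.12 and 2.20 FPKM, and just outside were Zfp959, Zfp84 and Zfp60, with just under 2.00, 1.95 and 1.94. Among the 197 genes left out by level, 7 were listed at 0 in every library. Another 115 were above 0 in some library but did not reach 1 FPKM in any. Together the members held 0.271 ± 0.0101% of all FPKM in the control, 0.263 ± 0.0156% after Tfap2c dsRNA, 0.251 ± 0.0102% after Tead4 dsRNA and 0.262 ± 0.0133% after both.

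Zfp207, which binds the checkpoint protein Bub3 and spindle microtubules, had the highest mean at 197 FPKM, with libraries from 163 to 232. Zfp706, a short protein with a single finger that is known for its part in the exit from pluripotency in embryonic stem cells, followed at 180. The next 8 in order were Zfp960 at 101, Zfp296 at 91.8, Zfp932 at 85.6, Zfp936 at 75.4, Zfp97 at 63.8, Zfp961 at 56.6, Zfp820 at 54.3 and Zfp707 at 48.2. The ranges of neighbours in that order overlapped over the libraries, also between Zfp207 and Zfp706, whose libraries ran from 121 to 213. Of these 10, 6 were KRAB genes by the coding sequence. The steadiest members with a mean of at least 5 FPKM were Zfp91, a ubiquitin ligase, at 4.68 to 5.98 FPKM, Zfp868 at 9.33 to 13.8, Zfp106 at 21.6 to 30.7, Zfp830 at 9.99 to 13.8 and Zfp207.

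**Figure D1:**
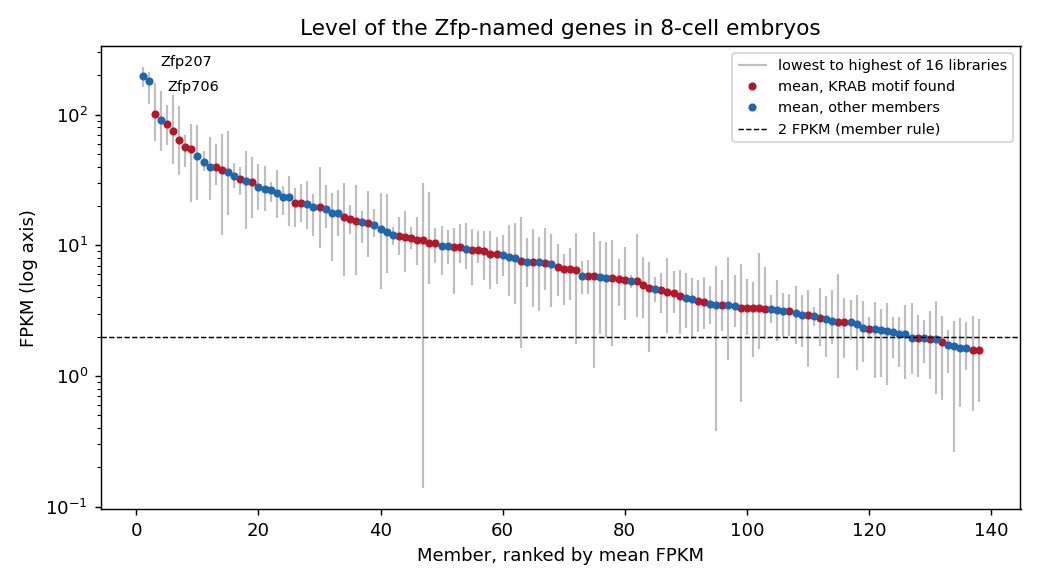
Mean FPKM of the 138 members on a log axis, ranked, with vertical lines from the lowest to the highest of 16 libraries and the 2 FPKM line of the member rule. KRAB genes (red) and other members (blue) were mixed over the whole range, and the line that reaches farthest down belongs to Zfp947, whose lowest library held 0.138 FPKM.

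The translated coding sequences separated the members by structure. A KRAB motif was found in 69 of the 136 that could be matched to a coding sequence, with a median of 12 C2H2 fingers and 7 TGEKP linkers (the short joint between neighbouring fingers). Another 56 had at least 2 fingers without KRAB or SCAN, with a median of 8 fingers and 1 linker. A SCAN motif was found in 3, and 8 held fewer than 2 finger motifs. Because copies in tandem arrays are alike, 17 members shared over 10% of their 50-base words with other genes, while 89 shared none. Levels of Zfp960, which shares 81.0% with other genes, Zfp97 most, and of Zfp600, which shares 75.2%, most with Gm13138, are uncertain to the extent that reads were divided between copies.

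After Tfap2c dsRNA, members changed in both directions. Against the GFP control, 33 members rose and 23 fell at an adjusted p under 0.05 (limma, log2(FPKM + 1) with cross as a covariate, adjusted over 11422 genes). The backgrounds were 16.3% of all tested genes for rises and 13.2% for falls, and in either direction 40.6% of the members passed against 29.6% of all genes. Here and in every comparison below, members had to reach 2 FPKM in 4 libraries and the background genes only 1 FPKM. Of members with a mean of at least 10 FPKM 51% passed, and of those below it 34.8%. The part of level in these shares was not tested. The members' median difference was 0.07 on the log2(FPKM + 1) scale, next to 0.06 for all genes. Differences past 2-fold on that scale were found for 7 rises and 4 falls. Of all tested genes, 6.75% were called with a difference past 2-fold in either direction. All libraries of one group lay above or below all of the other for 23 members that were higher and 15 that were lower, where 12.2% and 9.9% of all genes were so separated. Leaving out the Tfap2c-depleted library B2 lowered the rises from 33 to 19.

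Zfp947, a KRAB gene with 9 fingers at chr17:22144355-22166172 (GRCm38.p6), was the member that fell most. It measured 14.4, 16.2, 30.2 and 25.3 FPKM in control libraries A1, A2, B1 and B2, and 0.138, 0.545, 7.89 and 2.5 after Tfap2c dsRNA. The groups did not overlap, cross B was the higher cross in both, and the mean after depletion was 12.9% of the control's. The difference was -2.99 ± 0.31 (SE) on the log2(FPKM + 1) scale, with an adjusted p of 8.73e-06 (limma). The exact two-sided permutation p of 4 against 4 libraries was 0.0286, the smallest this design allows, here and for every other member without overlap. Zfp947 shares 14.3% of its 50-base words with other genes.

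The nearby Zfp758 (KRAB, chr17:22361430-22393909) held 6.77, 7.85, 12.6 and 8.95 FPKM in the control and 1.41, 1.89, 3.72 and 1.93 after Tfap2c dsRNA, again without overlap (difference -1.65 ± 0.19, adjusted p = 1.81e-05). Zfp600 (KRAB, chr4:146156827-146198756) went from 22.9, 27.3, 19.6 and 30.2 FPKM to 14.0, 12.8, 5.87 and 7.15, with the lowest values in cross B (-1.31 ± 0.21, adjusted p = 0.000376). Zfp110 (KRAB, chr7:12834761-12850586), a protein known to bind a neurotrophin receptor, went from 9.06, 9.13, 10.2 and 12.3 FPKM to 4.18, 3.01, 3.93 and 3.64 (-1.25 ± 0.15, adjusted p = 2.37e-05). In all 3, every depleted library was below every control library.

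The 6 other named falls were smaller. Zfp944, a KRAB gene between Zfp947 and Zfp758, fell by 0.91 on the log2(FPKM + 1) scale, Zfp655 by 0.81, Zfp105 by 0.80, Zfp951 by 0.79, Zfp710 by 0.74 and Zfp433 by 0.71. Zfp655 was the most abundant of them, at 41.3, 40.6, 57.0 and 58.4 FPKM in the control and 24.1, 25.1, 30.7 and 29.6 after depletion, with no overlap and the higher values in cross B. The call of Zfp105, whose libraries overlapped, was lost without control B1 (adjusted p = 0.0547) or depleted A2 (0.0502), within a range of 0.00298 to 0.156 over all settings tried. The remaining 13 members that fell had differences from -0.69 to -0.30, among them the abundant Zfp296, a partner of pluripotency factors, with means of 114 ± 14.0 and 76.0 ± 6.24 FPKM, and Zfp706, with 197 ± 15.5 and 150 ± 21.8.

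Among the rises, Zfp664 (9 fingers, no KRAB, chr5:124862705-124888630) showed the largest difference. It measured 2.09, 2.92, 4.17 and 2.72 FPKM in the control and 8.86, 8.13, 10.8 and 10.7 after Tfap2c dsRNA. All depleted libraries lay above all control libraries, at 1.43 ± 0.24 on the log2(FPKM + 1) scale (adjusted p = 0.000521). Zfp707 (chr15:75969123-75975868), among the 10 most abundant members, went from 23.8, 22.2, 40.7 and 30.6 FPKM to 47.2, 57.0, 82.8 and 73.3 (1.13 ± 0.13, adjusted p = 1.69e-05). Zfp623, which lies next to it, went from 2.16, 1.97, 5.17 and 4.68 FPKM to 6.26, 5.81, 10.7 and 10.3 (difference 1.08). For both neighbours the groups stayed apart and cross B was higher in each group.

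Zfp599 (KRAB, chr9:22244164-22259895) held 31.3, 27.8, 26.5 and 32.6 FPKM in the control and 71.1, 69.1, 45.5 and 66.7 after Tfap2c dsRNA (1.05 ± 0.17, adjusted p = 0.000368). Every depleted library was above every control library. The other named rises were Zfp229 (1.12), Zfp775 (1.02), Zfp101 (0.91), Zfp52 (0.87), Zfp800 (0.83) and Zfp367 (0.81). Zfp101, a KRAB gene, went from 6.11, 7.05, 5.99 and 4.27 FPKM to 10.6, 10.9, 12.6 and 12.8. Zfp367, with 2 fingers, went from 7.60, 9.84, 14.1 and 12.4 FPKM to 16, 18.6, 24.3 and 20.3. Neither pair of groups overlapped. In Zfp52 they did, at 1.70 to 5.85 FPKM against 3.93 to 11, and its call was lost when cross was not a covariate (adjusted p = 0.095, the highest of a range that starts at 0.000433). The call of Zfp800 was lost without control B2 (0.0535), depleted B1 (0.0602) or depleted B2 (0.06), in a range of 0.00445 to 0.422. The 23 other members that rose had differences between 0.26 and 1.12.

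**Figure D2:**
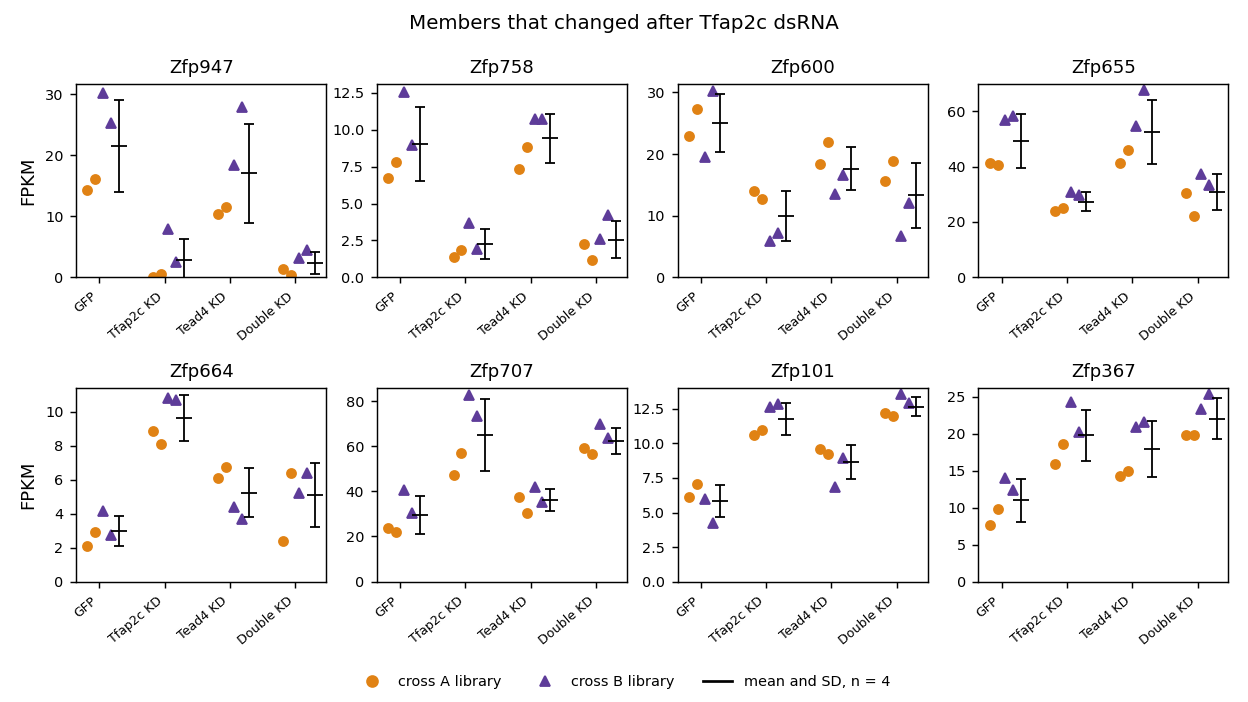
FPKM in each library (linear axes from 0) of 4 members that fell (top) and 4 that rose (bottom) after Tfap2c dsRNA, by group, with circles for cross A, triangles for cross B and the mean with SD (n = 4). In all 8 the Tfap2c-depleted libraries do not overlap the GFP libraries, and in Zfp947 the cross A libraries after Tfap2c dsRNA lie at 0.138 and 0.545 FPKM.

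AP-2 proteins bind GCCNNNGGC and TEAD factors bind GGAATG, and both words were searched on both strands in RefSeq promoter windows (GRCm38.p6) from 250 bases before to 50 bases after the start. The AP-2 word was found for 28 of the 118 members with a window, 23.7%, and for 18.5% of all 27025 genes in the promoter table. Among members called after Tfap2c dsRNA it was found for 8 of 27 that rose and 2 of 19 that fell, and among those called after Tead4 dsRNA for 2 of 5 that rose and 0 of 6 that fell. The TEAD word was found for 16 of 118 members, 13.6%, against 16.6% of all genes. It was found for 2 of 27 that rose and 6 of 19 that fell after Tfap2c dsRNA, and for 1 of 5 that rose and 1 of 6 that fell after Tead4 dsRNA. A match only describes letters, and binding was not measured. The windows below are shown because they show both words beside changes in both directions, as the 250 bases before the start, 5′ to 3′ on the gene's strand, with matches in capitals. Zfp775 (chr6:48601757-48602006, plus strand) and Zfp367 (chr13:64152374-64152623, minus strand) rose and hold the AP-2 word, which Zfp433 (chr10:81704575-81704824, plus strand), a member that fell, holds as well. Zfp947 (chr17:22165978-22166227, minus strand) fell and Zfp664 (chr5:124862455-124862704, plus strand) rose, and each holds the TEAD word. The starts that set the windows of Zfp947 and Zfp433 lie inside the RefSeq spans of these genes, so their printed bases partly belong to the gene. In Zfp947 the TEAD word lies within that span.
Zfp775: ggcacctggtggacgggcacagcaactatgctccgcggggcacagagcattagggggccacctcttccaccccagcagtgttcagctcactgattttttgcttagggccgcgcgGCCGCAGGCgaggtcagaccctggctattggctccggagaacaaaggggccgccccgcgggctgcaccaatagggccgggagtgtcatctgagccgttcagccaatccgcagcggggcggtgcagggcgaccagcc
Zfp367: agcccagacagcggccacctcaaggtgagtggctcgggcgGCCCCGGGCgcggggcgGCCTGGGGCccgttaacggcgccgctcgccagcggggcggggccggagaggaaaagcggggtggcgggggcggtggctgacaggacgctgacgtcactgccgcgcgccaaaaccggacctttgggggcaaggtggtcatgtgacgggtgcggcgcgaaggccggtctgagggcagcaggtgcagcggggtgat
Zfp433: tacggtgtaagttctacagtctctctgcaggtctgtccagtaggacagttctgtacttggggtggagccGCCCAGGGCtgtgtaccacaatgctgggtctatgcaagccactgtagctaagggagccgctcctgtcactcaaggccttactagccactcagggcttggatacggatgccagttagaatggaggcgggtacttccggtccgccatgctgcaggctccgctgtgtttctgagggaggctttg
Zfp947: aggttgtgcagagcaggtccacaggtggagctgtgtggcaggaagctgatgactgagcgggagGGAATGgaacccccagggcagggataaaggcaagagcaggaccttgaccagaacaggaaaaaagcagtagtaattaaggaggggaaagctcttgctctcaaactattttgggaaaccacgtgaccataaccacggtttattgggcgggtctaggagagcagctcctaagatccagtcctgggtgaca
Zfp664: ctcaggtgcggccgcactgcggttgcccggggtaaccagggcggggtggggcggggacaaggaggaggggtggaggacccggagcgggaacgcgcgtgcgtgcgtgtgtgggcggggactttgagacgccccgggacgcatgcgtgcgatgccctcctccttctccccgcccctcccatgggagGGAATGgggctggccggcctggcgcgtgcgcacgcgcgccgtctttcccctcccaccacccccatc
The first base of the word lies 136 bases before the start in Zfp775, 181 in Zfp433, 187 in Zfp947 and 66 in Zfp664, and Zfp367 holds the AP-2 word at 210 and at 193 bases.

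A second measure of Tfap2c dsRNA is available from libraries that were not part of the first, namely both dsRNAs against Tead4 dsRNA alone. The mean differences share no library, but the calls share each gene's estimate of spread, which comes from all 16 libraries. Here 25 members rose and 14 fell, with backgrounds of 10.9% and 12.9% of all genes, or 28.3% of the members in either direction and 23.7% of all genes. Of the 56 members called against GFP, 22 were called in the same direction here, 39.3% of the first list and 56.4% of the second. These were 14 rises and 8 falls, and 47 of the 56 had the same sign. Over all genes, 52.9% of those called in the first comparison were called in the same direction in the second and 91.9% had the same sign. Across the 138 members the differences had a Pearson correlation of 0.67, and across all tested genes 0.65, given as a description since genes are not replicates. For Tead4 dsRNA the same kind of measure, both dsRNAs against Tfap2c dsRNA alone, called none of the 17 members called against GFP. Of all genes called against GFP after Tead4 dsRNA, 1.29% were called in the same direction there. Of the 17 members, 12 had the same sign, where 73.9% of all genes called against GFP did. The correlation was 0.024 across the 138 members and 0.14 across all tested genes.

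Zfp947 held 10.3, 11.5, 18.4 and 27.9 FPKM after Tead4 dsRNA and 1.36, 0.341, 3.17 and 4.45 after both (-2.53, adjusted p = 4e-05). Zfp758 held 7.35, 8.83, 10.7 and 10.8 FPKM and 2.29, 1.15, 2.61 and 4.20 (-1.60, adjusted p = 2.89e-05). In both genes no doubly depleted library reached the lowest Tead4-depleted one. Zfp599 showed the largest rise, from 12.8, 11.9, 18.7 and 14.2 FPKM to 47.1, 43.8, 34.3 and 53.9 (1.57, adjusted p = 1.65e-05), and Zfp229 and Zfp934 rose by 1.16 and 1.15. Zfp771 was the only member called in opposite directions, with 1.12 in the first comparison and -1.59 in the second. Zfp664, with the largest rise against GFP, did not pass here (-0.07, adjusted p = 0.864), and neither did Zfp110 (0.07, adjusted p = 0.767) or Zfp600 (-0.45, adjusted p = 0.145).

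**Figure D3:**
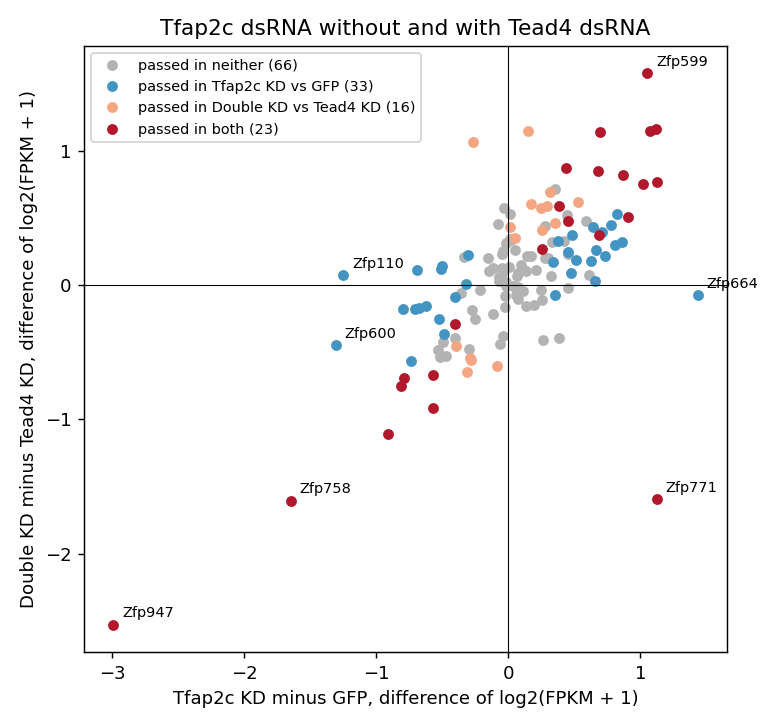
Difference of log2(FPKM + 1) for each of the 138 members between Tfap2c-depleted and GFP libraries (horizontal) and between doubly depleted and Tead4-depleted libraries (vertical), which share no library, coloured by the comparison in which a member passed. Zfp947 and Zfp758 lie at the lower left and Zfp599 at the upper right, Zfp771 lies at the lower right and Zfp664 near 0 on the vertical axis.

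With both dsRNAs against GFP, 23 members rose and 18 fell, with backgrounds of 13.9% and 11.3%, or 29.7% of the members in either direction and 25.1% of all genes. This comparison shares the GFP libraries with the others against GFP, so its values are only set beside theirs. Zfp947 averaged 2.33 ± 1.83 FPKM, 10.8% of the control's 21.5 ± 7.52 (-2.89 ± 0.31), and Zfp758 averaged 2.56 ± 1.26 against 9.03 ± 2.52 (-1.53 ± 0.19). Zfp707 averaged 62.3 ± 5.80 against 29.3 ± 8.40 (1.10 ± 0.13), and Zfp101 averaged 12.7 ± 0.710 against 5.86 ± 1.16 (1.01 ± 0.14). Zfp367 measured 19.8, 19.8, 23.3 and 25.4 FPKM, all above the control's highest value of 14.1 (0.97 ± 0.10, adjusted p = 1.65e-05). Zfp819, a low KRAB gene outside the naming rule that was picked after its values were seen, had the largest rise at 1.18, from 0.627, 1.3, 2.21 and 1.81 FPKM to 1.88, 4.68, 7.19 and 5.6. Libraries of the groups did not overlap for 18 members that were higher and 9 that were lower, with backgrounds of 11.3% and 9.3%. The rises numbered 14 without GFP library A1 or without A2, and 13 without the filter on low values.

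Between both dsRNAs and Tfap2c dsRNA alone, no member passed in limma, where 0.14% of all genes did. An unadjusted p under 0.05 was reached by 15 of the 138 members and by 1087 of the 11422 genes. The members' differences ran from -1.28 for Zfp771 to 0.53. A missed threshold does not show equal levels: for Zfp664, with means of 9.63 ± 1.34 FPKM after Tfap2c dsRNA and 5.10 ± 1.90 after both, the difference was -0.86 (adjusted p = 0.222). One member passed when the doubly depleted library B2 was left out.

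After Tead4 dsRNA fewer members changed. Against GFP, 5 rose and 12 fell, with backgrounds of 3.35% and 2.78%, and in either direction 12.3% of the members passed against 6.13% of all genes. Of members with a mean of at least 10 FPKM 18.4% passed, and of those below it 8.99%. The split was 3 rises and 13 falls after quantile normalization and 4 and 13 after median-ratio rescaling. The members' median difference was 0.02, next to 0.05 for all genes. Libraries did not overlap for 6 members that were higher and 12 that were lower, with backgrounds of 6.07% and 3.6%. Only 2 rises were called when GFP A1, B1 or B2, or Tead4-depleted A2 or B2, was left out, and 3 without Tfap2c-depleted A2 or Tead4-depleted A1 or B1. A KRAB motif was found in 11 of the 12 falls, and in 69 of the 136 members with a coding sequence. The 11 include the similar copies Zfp960 and Zfp97 and the overlapping genes Zfp599 and Zfp809, so they are not 11 separate results. The calls of Zfp960, Zfp809 and Zfp97 were lost in 4, 3 and 1 of the fits without 1 library. The share of KRAB genes among the falls was not tested. The exception among the falls was Zfp410, a C2H2 protein known as an activator of Chd4.

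Zfp934 (KRAB, chr13:62516795-62579321) fell most, from 8.66, 10.4, 8.69 and 10.8 FPKM in the control to 2.80, 3.11, 1.80 and 1.65 after Tead4 dsRNA (-1.69 ± 0.24, adjusted p = 0.000675). The groups did not overlap, and the Tfap2c-depleted libraries held 11.9, 16.4, 8.24 and 8.14. Zfp934 shares 53.4% of its 50-base words with other genes, Zfp808 most. Zfp110 measured 3.35, 3.41, 3.78 and 3.5 FPKM (-1.3 ± 0.15, adjusted p = 0.000111), and the doubly depleted libraries were at 3.89, 3.26, 2.84 and 5.31. Any of the 3 dsRNA groups thus had Zfp110 below the control's lowest value of 9.06. Zfp7 (KRAB, chr15:76879253-76892395) held 3.33, 6.22, 6.82 and 7.33 FPKM in the control and 1.53, 2.31, 2.39 and 2.98 after Tead4 dsRNA (-1.04 ± 0.20, adjusted p = 0.00591). These groups did not overlap either.

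Zfp599 and its neighbour Zfp809 fell after Tead4 dsRNA, and their values are set beside those after Tfap2c dsRNA, which share the control. Zfp599 measured 12.8, 11.9, 18.7 and 14.2 FPKM after Tead4 dsRNA, below every control library (-1.0 ± 0.17, adjusted p = 0.00255). Zfp809, a KRAB protein known for binding the primer binding site of murine leukemia virus, held 14.7, 13.5, 17.3 and 18.2 FPKM in the control and 21.9, 17.9, 39.5 and 30.3 after Tfap2c dsRNA. It held 9.48, 9.83, 10.3 and 12.1 after Tead4 dsRNA (-0.56 ± 0.13, adjusted p = 0.0197) and 22.4, 20.5, 29.3 and 24.7 after both. The group after Tead4 dsRNA was the lowest throughout and did not overlap the control. The spans of both genes overlap by 9954 bases in RefSeq, and reads from the shared stretch cannot be assigned to one of them without strand. The Tead4 call of Zfp809 was lost without GFP A1 (0.0605), GFP B2 (0.0511) or Tead4-depleted B1 (0.0681), in a range of 0.00553 to 0.171.

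Zfp568, a KRAB protein that represses a placental Igf2 promoter, fell from 26.6, 27.5, 19.9 and 23.1 FPKM to 16.1, 14.4, 15.8 and 13.8 without overlap (-0.65 ± 0.11, adjusted p = 0.00232). Zfp932 fell by 0.62, Zfp410 by 0.55 and Zfp961 by 0.47. The paralogs Zfp960 and Zfp97 fell by 0.57 and 0.56, and their libraries overlapped those of the control. Since reads can be divided between these copies, their falls are not separate results. Their calls were lost without Tead4-depleted B1 (0.0894 and 0.0566), and that of Zfp960 also without Tead4-depleted A2 (0.0797), GFP A2 (0.0709) or GFP B1 (0.0767), with ranges of 0.0167 to 0.251 for Zfp960 and 0.00904 to 0.474 for Zfp97.

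The largest rise after Tead4 dsRNA was that of Zfp771 (8 fingers, no KRAB, chr7:127242996-127254872), from 2.17, 0.841, 2.83 and 1.05 FPKM to 5.67, 5.97, 6.96 and 5.61 (1.44 ± 0.27, adjusted p = 0.0055), with the groups well apart. Zfp367 rose by 0.67 to 14.4, 15, 21.0 and 21.6 FPKM, above all control libraries. Zfp819 rose by 0.86, Zfp942 by 0.66 and Zfp101 by 0.51. Over all settings the adjusted p ran from 0.00968 to 0.472 for Zfp942 and from 0.0263 to 0.254 for Zfp101. It was above 0.05 in both genes without GFP A1 (0.0885 and 0.076), GFP B1 (0.0846 and 0.0617), GFP B2 (0.0567 and 0.126), Tead4-depleted A2 (0.0736 and 0.098) or Tead4-depleted B2 (0.0776 and 0.0975). It was also above 0.05 for Zfp942 without Tead4-depleted B1 (0.0976) and for Zfp101 without Tead4-depleted A1 (0.1) or Tfap2c-depleted A2 (0.0501). Without the cross term the calls of Zfp942, Zfp101, Zfp809, Zfp960 and Zfp97 were lost as well, and so was that of Zfp367 (0.0814, in a range of 0.00139 to 0.0952).

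**Figure D4:**
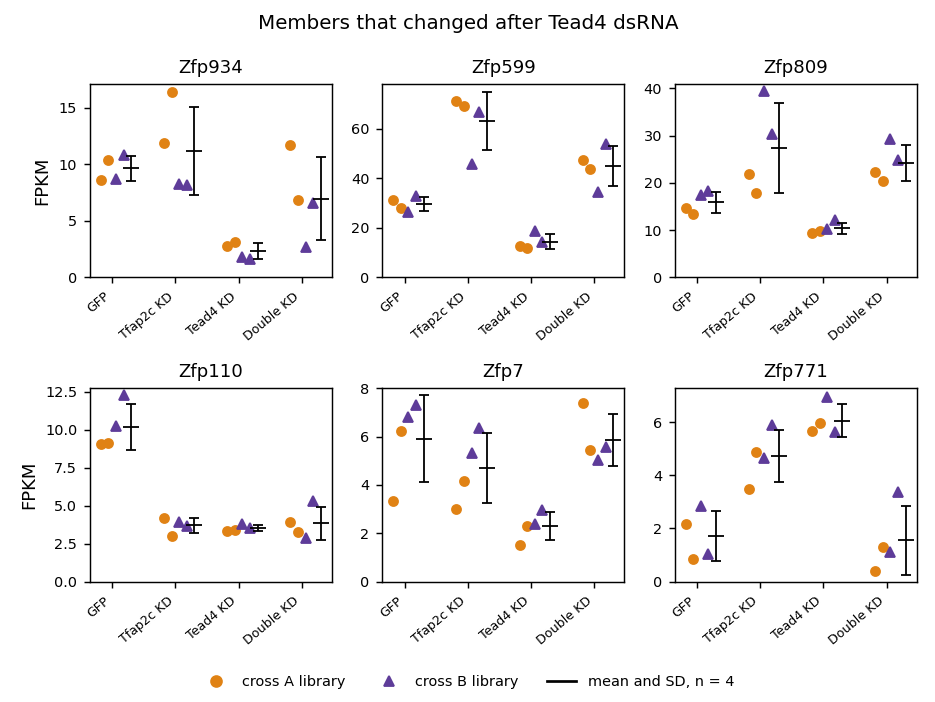
FPKM in each library (linear axes from 0) of 6 members called after Tead4 dsRNA, by group, with circles for cross A, triangles for cross B and the mean with SD (n = 4). Zfp599 and Zfp809 are highest after Tfap2c dsRNA and lowest after Tead4 dsRNA, Zfp110 is at about the same level in the 3 dsRNA groups, and Zfp771 is high after either dsRNA alone and not after both.

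Whether the response to both dsRNAs differed from the sum of the separate responses was tested with the interaction contrast. It was called for 3 members, 2 above and 1 below 0, where 0.753% of all genes were called, 0.385% above and 0.368% below. Zfp771 held 3.48, 4.88, 4.64 and 5.90 FPKM after Tfap2c dsRNA, 5.67, 5.97, 6.96 and 5.61 after Tead4 dsRNA and 0.380, 1.3, 1.13 and 3.38 after both. The doubly depleted libraries overlapped the control, and the interaction was -2.71 on the log2(FPKM + 1) scale (adjusted p = 0.00851). For Zfp110 it was 1.32 (adjusted p = 0.0192), with libraries from 2.84 to 5.31 FPKM after both. For Zfp7, at 7.41, 5.46, 5.01 and 5.56 FPKM after both, it was 1.33 (adjusted p = 0.0447). That call was lost in 14 of the 16 fits without 1 library, all but those without GFP A1 or doubly depleted B1, in a range of 0.0361 to 0.319 over all settings. In either cross alone none of the 3 passed.

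Position in the genome grouped 79 members into 25 clusters, in which each lies within 500 kb of another. The largest, at chr17:21008941-22393909, held 14 members, of which 4 rose and 3 fell after Tfap2c dsRNA, 1 rose after Tead4 dsRNA, and 3 rose and 3 fell after both. Among all tested genes 16.3% rose and 13.2% fell after Tfap2c dsRNA, 3.35% and 2.78% after Tead4 dsRNA, and 13.9% and 11.3% after both. In chromosomal order the rises, Zfp54, Zfp51, Zfp52 and Zfp229, are among the first 8 members and the falls, Zfp947, Zfp944 and Zfp758, are the last 3. Zfp820, the most abundant of the cluster at 54.3 FPKM, lies between them and did not pass (-0.53, adjusted p = 0.134). Within the cluster at chr17:32765496-33631716, 2 of 7 members rose after Tfap2c dsRNA and none fell, and at chr13:66670274-67683512 1 of 6 fell and none rose. The order within a cluster was not tested, and neighbours were not tested against other pairs of members.

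**Figure D5:**
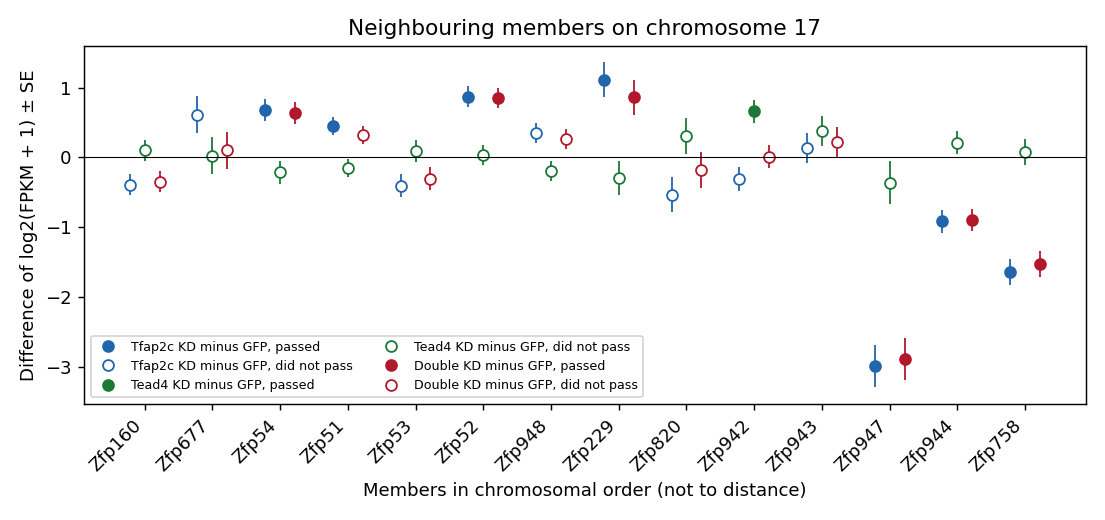
Difference of log2(FPKM + 1) from GFP, with SE, for the 14 members of the largest cluster in chromosomal order, after Tfap2c dsRNA (blue), Tead4 dsRNA (green) and both (red), with filled points for members that passed. Rises of 0.45 to 1.12 after Tfap2c dsRNA stand to the left, and the falls of Zfp947 (-2.99), Zfp944 (-0.91) and Zfp758 (-1.65) stand at the right end.

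By structure, the 69 KRAB members had 14 rises and 15 falls after Tfap2c dsRNA, and the 56 C2H2 members without KRAB or SCAN had 15 and 5. After Tead4 dsRNA the counts were 3 and 11 for KRAB members and 2 and 1 for the others. With both dsRNAs against Tead4 dsRNA alone they were 18 and 10 for KRAB members and 5 and 3 for the others. Of 140 genes with at least 3 C2H2 fingers and a name that does not start with Zfp, 16 rose and 40 fell after Tfap2c dsRNA and 3 rose and 6 fell after Tead4 dsRNA. Among 40 genes named Zbtb, Zscan or Zkscan these counts were 5 and 3, and 0 and 1. Of all tested genes, 16.3% rose and 13.2% fell after Tfap2c dsRNA, and 3.35% and 2.78% after Tead4 dsRNA. With both dsRNAs against Tead4 dsRNA alone, 10.9% rose and 12.9% fell. The KRAB class rests on a motif search, which can miss a domain, and differences between the classes were not tested.

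Of 23 members whose protein has a well-known role, 6 rose and 1 fell after Tfap2c dsRNA, where 16.3% and 13.2% of all genes did. Among these rises is Zfp326, which met the member rule mostly in Tfap2c-depleted libraries. After Tead4 dsRNA 0 rose and 2 fell (3.35% and 2.78% of all genes), and after both 5 rose and 1 fell (13.9% and 11.3%). Of the calls after both, the rises of Zfp292, Zfp326 and Zfp407 were lost in 11, 6 and 5 of the fits without 1 library. The fall of Zfp36 was lost in 5, while the rises of Zfp809 and Zfp830 were kept in all. Zfp143, which binds promoters and chromatin loops, averaged 37.6 ± 3.58 FPKM in the control and 36.0 ± 5.07, 30.0 ± 2.80 and 31.4 ± 4.28 after Tfap2c dsRNA, Tead4 dsRNA and both, with no call. Zfp281, a regulator of pluripotency, averaged 14.3 ± 1.48 in the control and 12.9 ± 1.51, 14.6 ± 1.91 and 15.8 ± 2.48, also with no call. Zfp445, which guards imprinted regions together with Zfp57, averaged 3.63 ± 0.475 in the control and 4.83 ± 0.574 after Tfap2c dsRNA (0.33, adjusted p = 0.089). Zfp830, known to be needed by the early blastocyst, rose with little spread, from 10.1, 9.99, 11 and 11 FPKM to 11.8, 12.7, 13.0 and 13.5 after Tfap2c dsRNA (0.26, adjusted p = 0.0205). That call was lost without Tfap2c-depleted A2 (0.0555) or B2 (0.0532), in a range of 0.00247 to 0.229, while the rise after both dsRNAs, to 13.0, 13.2, 13.8 and 13.5 (0.32, adjusted p = 0.00626), had no such loss. Zfp36, or tristetraprolin, which marks AU-rich transcripts for decay, averaged 10.0 ± 3.37 in the control, 6.77 ± 1.08 after Tfap2c dsRNA (adjusted p = 0.0851) and 6.28 ± 2.82 after both.

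The repressor machinery that KRAB proteins call on was measured through 37 tested genes of a list chosen by function. Of these, 6 rose and 3 fell after Tfap2c dsRNA, 2 rose and 2 fell after Tead4 dsRNA, and 9 rose and 4 fell after both. The shares of all genes that rose and fell were 16.3% and 13.2%, 3.35% and 2.78%, and 13.9% and 11.3% in the same order. Trim28, the corepressor itself, was at 115 to 182 FPKM and did not pass in any comparison with GFP (-0.23 after Tfap2c dsRNA, adjusted p = 0.159). Setdb1, its histone methyltransferase, was at 3.86 to 8.17 FPKM and did not pass either (-0.29, adjusted p = 0.104). The 3 listed genes with the lowest p after Tfap2c dsRNA were Cbx1, Atrx and Gatad2b. Cbx1, a heterochromatin protein, rose by 1.41 (adjusted p = 1.57e-05, limma), Gatad2b rose by 0.67 and Atrx fell by 0.65. Dnmt3b, next by p, fell by 0.85.

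Cross B differed from cross A in 50 members, 28 higher and 22 lower (36.2% of the members, where 33.5% of all genes were called, 17.2% higher and 16.3% lower). The 8 cross A libraries of Zfp947 ran from 0.138 FPKM over a median of 5.84 to 16.2, and those of cross B from 2.5 over 13.1 to 30.2 (1.33, adjusted p = 0.000378). Zfp97 ran from 34.8 over 45.5 to 58.1 in cross A and from 57.9 over 79.2 to 116 in cross B (0.83, adjusted p = 1.47e-05), and Zfp52 was higher in cross B by 0.87. Zfp239 was lower in cross B, at 13.4 to 33.2 FPKM with a median of 22.5, against 26.9 to 52.6 with a median of 39.2 in cross A (-0.77, adjusted p = 0.0007). In each of these the ranges overlapped, by a fraction of 1 FPKM in Zfp97. A term for knockdown by cross was called for no member and no other gene in any of the 3 knockdowns (limma), with 16, 7 and 20 of the 138 members at an unadjusted p under 0.05 for Tfap2c, Tead4 and both, where 16.5%, 6.98% and 11.2% of all genes were.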

How the data were processed

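The deposited table holds FPKM per gene for 16 libraries, made by the authors from Smart-seq2 reads. CASAVA, Trim Galore, STAR, Cufflinks and mm10 are named in the submitters' processing notes without versions or roles, and the gene annotation is not given in the sources used here. FPKM is scaled to transcript length and to all mapped fragments, so it keeps no total count, and genes with near-identical copies or overlapping spans can exchange reads. Values of 59 lines that repeat an identifier were summed. The 11422 genes that reached 1 FPKM in 4 or more libraries were fitted as log2(FPKM + 1) with limma 3.58.1 (R 4.3.3), group and cross as terms, and Benjamini-Hochberg adjustment. A fold on this scale understates changes of low genes. All 138 members passed the filter. The procedure was also run on simulated data with independent normal noise and no difference between crosses. Such data cannot show how it performs on these libraries. Alternatives were a pseudocount of 0.1, no filter, other scalings, no cross term, a replicate block, single crosses and leaving out each library.

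The members and gene lists were chosen with earlier results of these data known. Named members are, against GFP, up to 10 rises and 10 falls by size with an adjusted p under 0.05, a mean of 5 FPKM in 1 group and the same sign in both crosses. To these come up to 3 of each in other comparisons, the 10 highest, the 5 steadiest, those at the threshold and 23 of known role. Finger, linker, KRAB and SCAN motifs were counted in translated GENCODE coding sequences of an older build (NCBIM37), used for sequence features only. Positions and promoters are from RefSeq (GRCm38.p6), which placed all 138 members and gave a promoter for 118.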

Additional observations from a re-analysis of the deposited data

Results flagged for a closer look

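For Zfp771, Zfp110 and Zfp7 the response to Tead4 dsRNA differed with and without Tfap2c dsRNA by the interaction contrast in limma, by -2.71, 1.32 and 1.33 on the log2(FPKM + 1) scale. In 4 of 240 groups of 4 libraries (60 named members), 1 library stood apart from the other 3 by Dixon's criterion, which chance alone meets in about 5% of groups. Zfp105 measured 4.41 FPKM in doubly depleted library B2, where the next library held 2.58. Zfp932 measured 93.3 FPKM in the same library, where the next held 77.7. Zfp281 measured 17.5 FPKM in Tead4-depleted library A1, next to 14.0, and Zfp326 measured 2.46 FPKM in Tead4-depleted library B2, next to 1.58.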

How the results depend on the processing

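No named member's call changed direction under any alternative. Of 88 calls of named members, 66 were kept in every fit without 1 library, and 58 also under every alternative other than the single crosses. Leaving out 1 library gave 19 to 34 rises and 18 to 24 falls after Tfap2c dsRNA (33 and 23 with all), 2 to 5 and 9 to 14 after Tead4 dsRNA (5 and 12), and 14 to 24 and 12 to 19 after both (23 and 18). It gave 0 to 1 calls between both and Tfap2c dsRNA, 30 to 44 between both and Tead4 dsRNA, 2 to 4 for the interaction and 38 to 47 between crosses. Without the cross term there were 18 rises and 13 falls after Tfap2c dsRNA, 1 rise after Tead4 dsRNA and 13 rises and 9 falls after both. With no filter there were 2 rises after Tead4 dsRNA and 13 rises and 11 falls after both, and quantile normalization gave 3 rises after Tead4 dsRNA. Cross A alone, with 2 libraries a group, gave 12 rises and 14 falls after Tfap2c dsRNA, 0 and 7 after Tead4 dsRNA, 15 and 10 after both, 24 calls between both and Tead4 dsRNA and 0 for the interaction. Cross B alone gave 16 and 12, 0 and 1, 5 and 11, 17 and 0. With a replicate block the counts were 30 and 23, 4 and 12, and 19 and 15, with 38 calls between both and Tead4 dsRNA and 2 for the interaction. Among named members the block ended the calls of Zfp101 after Tead4 dsRNA (adjusted p = 0.0677), Zfp292 and Zfp326 after both (0.0649 and 0.0571) and the interaction of Zfp7 (0.0666). Deviations from group means, which still hold the difference between crosses, correlated at 0.0321 to 0.308 between same-numbered libraries. By these deviations a library matched its own number best in 21 of 48 cases. Deviations taken within a cross correlated at -0.165 to 0.176, so the numbers were not taken as pairs beyond the cross. Members near 2 FPKM rest on few fragments, and how many is not known from FPKM.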
